A study of Danio rerio with 8 samples.

Results

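The genes described here encode the enzymes of glycolysis and of glycogen storage in zebrafish tail muscle. A list of 32 gene symbols was set out by enzyme step, and a gene was a member when its symbol in the deposited count table equalled 1 on the list. This found 31 of the 32, among 25279 genes in the table. The aldolase gene aldoca was not analysed here. Bulk RNA was sequenced from tail muscle dissected along with its intermuscular bones, thin bones in the sheets between the muscle blocks of many teleosts, at 60 days post fertilization. There were 3 libraries of runx2b-/- fish and 3 of wild type (runx2b+/+) fish, and both groups carried the Tg (sp7/eGFP) transgene, in which regulatory sequence of the osteoblast gene sp7 drives a fluorescent protein. The labels do not describe the mutant allele, and nothing in them ties each library to a fish of its own. The p-values therefore rest on the spread between these libraries alone, which may be technical. The single-cell samples of the series, 1 per genotype, were not analysed here.

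Glycolysis splits glucose into pyruvate in the cytosol and yields ATP without oxygen. Fast skeletal muscle, the bulk of a fish's trunk, runs on it during bursts of swimming, drawing glucose units from glycogen and turning pyruvate into lactate. Zebrafish hold many of these enzymes as pairs of paralogs, named a and b, which date from a genome duplication in the ancestor of teleosts. Of such a pair, often 1 copy dominates in muscle and the other elsewhere.

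Libraries held 17280098 to 20482003 counts. The members took 1.51% to 2.26% of the counts in runx2b-/- libraries and 1.54% to 1.73% in wild type libraries. Fast muscle markers dominated, with 10 of 10 detected. They summed to 208025 to 358644 CPM (counts per 1000000, scaled by trimmed mean of M-values, TMM) in runx2b-/- libraries and to 258994 to 382765 CPM in wild type libraries. runx2b itself had 4, 2 and 6 counts in runx2b-/- libraries and 2, 2 and 6 in wild type libraries, too few to check the genotype labels. Fewer cells of a type and less RNA per cell cannot be told apart in bulk tissue.

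The isomerase gene gpib was 33.6-fold lower in runx2b-/- tail muscle, and no other enzyme gene of the list passed the test. Genes were tested with edgeR's quasi-likelihood test, and a gene was called at a Benjamini-Hochberg adjusted p under 0.05 over all 14107 tested genes. Of the 31 members found, 30 passed the filter on low counts, and of these 1 fell and 0 rose. Over all tested genes 3.37% were called, so 1 of 30 is close to the share in the whole table. An unadjusted p under 0.05 was reached by 7 of the 30, beside 19.4% of all tested genes. DESeq2 called 2 of the 30 members (gpib lower and gys1 higher), beside 4.79% of the genes it tested, and limma voom called gpib alone. The median log2 fold change (runx2b-/- minus wild type) was 0.06 over the tested members, 18 of 30 of them above 0, and -0.01 over all tested genes, 49.2% of them above 0. All adjusted p-values of genes below come from this edgeR test unless another tool is named.

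**Figure D1:**
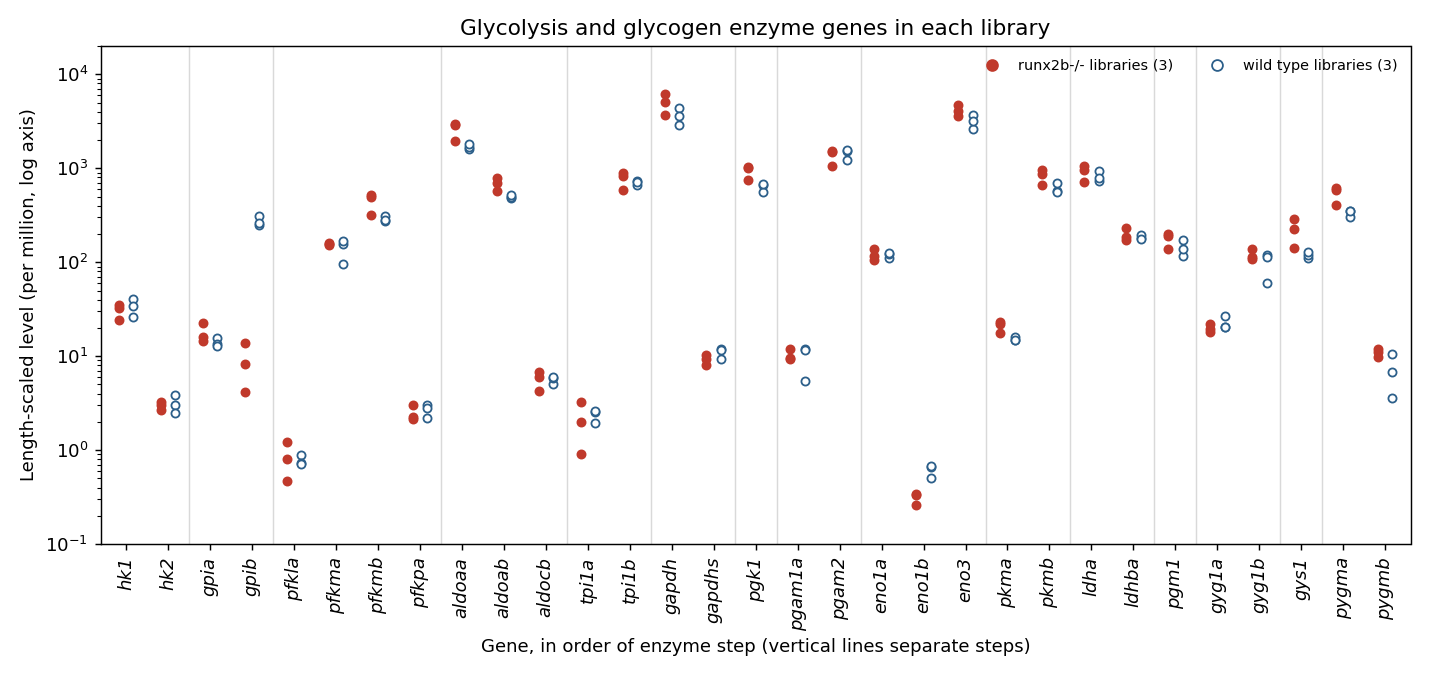
Level of each of the 31 enzyme genes in each of the 6 libraries, as counts per base of gene model, scaled per 1000000 (log axis), in order of enzyme step; filled points are runx2b-/- libraries and open points wild type libraries. The 3 runx2b-/- values of gpib lie between 4.18 and 13.8, against 249 to 307 in wild type, while the groups of most other genes overlap.

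Glucose-6-phosphate isomerase turns glucose 6-phosphate into fructose 6-phosphate, and glucose from the blood and glucose units from glycogen both pass through it. gpib had 273, 71 and 162 counts in runx2b-/- libraries, against 5871, 6744 and 5146 in wild type libraries. Scaled by library this was 12.7, 4.29 and 8.84 CPM in runx2b-/- libraries and 262, 317 and 294 CPM in wild type libraries. Each runx2b-/- library was thus far below each wild type library, yet none was empty. The log2 fold change was -5.07 (SE 0.38, edgeR adjusted p = 0.000371), or 33.6-fold lower in runx2b-/-. The fall was called under each of the 15 alternatives in which gpib was a gene of its own, leaving out each library included, at -5.47 to -4.74 on the log2 scale. Of all tested genes 18 had a lower log2 fold change than gpib. The runx2b-/- libraries varied more among themselves, with a coefficient of variation of 49.0% against 9.39% in wild type.

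Its paralog gpia (chromosome 25, 35408675 to 35434057) did not pass the test. gpia had 24.1, 17.2 and 19.7 CPM in runx2b-/- libraries and 19.3, 16.2 and 16.9 CPM in wild type libraries. The groups overlapped, and its log2 fold change was 0.22 (SE 0.17, edgeR adjusted p = 0.521). An interval of 1.96 SE to either side ran from -0.11 to 0.55. In length-scaled units (counts per base of gene model, as a share of that sum over all genes and given per 1000000) gpib made up 38.1%, 22.5% and 34.4% of the isomerase level in runx2b-/- libraries and 94.1%, 95.8% and 95.3% in wild type libraries. The lesser paralog of wild type muscle was therefore the greater one in each runx2b-/- library. The log2 ratio of gpia to gpib averaged 1.13 ± 0.57 in runx2b-/- and -4.28 ± 0.27 in wild type (SD, n = 3 each), a difference of 5.41. An exact two-sided permutation test over 3 against 3 libraries gave p = 0.1, the smallest it can give, and p = 0.3 adjusted over 12 gene pairs.

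With the counts of both isomerase genes added up, the step held 790, 356 and 523 counts in runx2b-/- libraries and 6303, 7089 and 5442 in wild type libraries. When each enzyme step was summed into 1 row and all genes were fitted again, glucose-6-phosphate isomerase was 10.6-fold lower in runx2b-/- (log2 fold change -3.41, SE 0.21, edgeR adjusted p = 2.22e-06). It was the 1 step of 15 that was called. A read given to the wrong paralog stays within such a sum, but a read counted for neither gene does not. How reads were assigned between the paralogs was not tested. Without gpib, the difference of the step in length-scaled units was 0.31 on the log2 scale, against -3.49 with it.

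**Figure D2:**
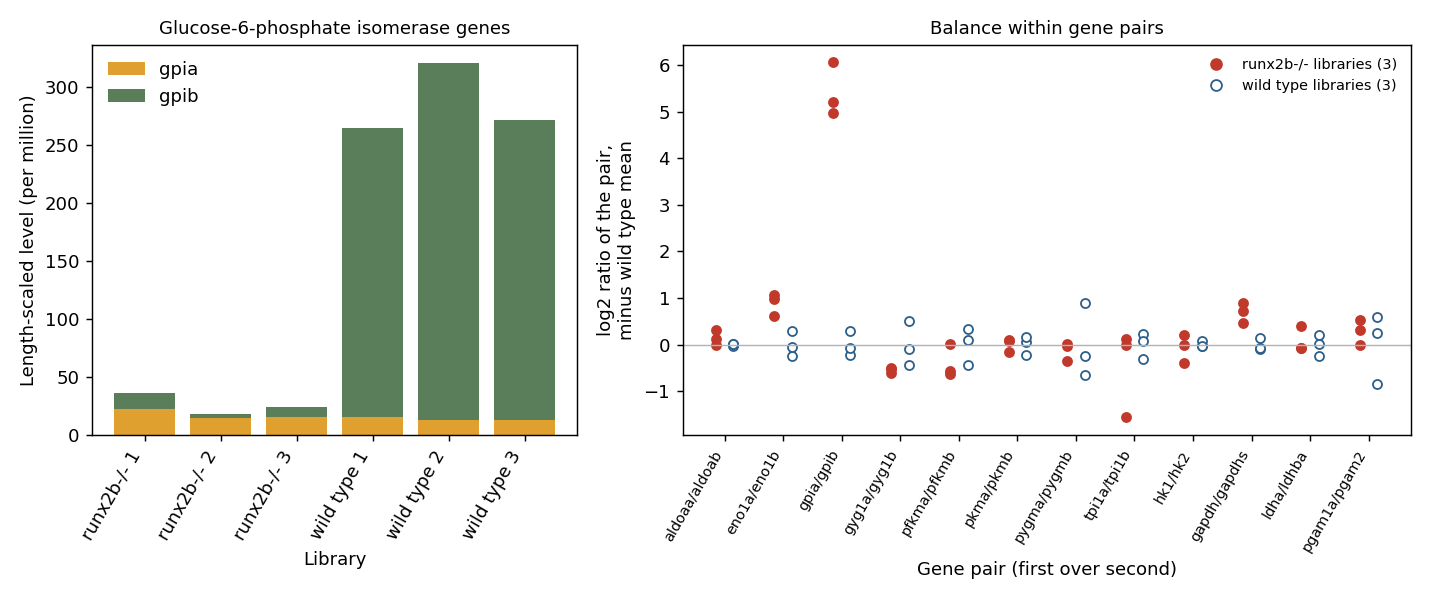
Left, length-scaled level of gpia and gpib stacked for each library (per 1000000); right, log2 ratio of 12 gene pairs in each library, with the mean of the 3 wild type libraries set to 0 (filled points runx2b-/-, open points wild type). The gpia to gpib ratio stands 5.41 higher in runx2b-/- on average, and the other pairs differ by at most 0.90.

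The gene model of gpib in the table spans a long stretch. It runs on the plus strand of chromosome 18 from 512830 to 1011132, as the table gives it; the table names no genome build. Of its 23 separate exon parts, 18 lie in a compact block from 512830 to 534703 that holds 1908 of its 2059 bases. The other 5 parts are 12 to 65 bases long and lie scattered downstream. In the long gap between these parts the table has 8 other genes, and none of them shares an exonic base with gpib. Of the 8, 3 were tested and 0 were called. The ubiquitin ligase gene nedd4a, on the same strand, had 24.5, 17.9 and 17.1 CPM in runx2b-/- libraries and 14.9, 17.5 and 11.9 CPM in wild type libraries (log2 fold change 0.43, SE 0.20, edgeR adjusted p = 0.253). cox5ab, for a subunit of cytochrome c oxidase, had 40.6, 36.1 and 29.7 CPM in runx2b-/- libraries and 44.0, 38.9 and 34.3 CPM in wild type libraries (-0.14, SE 0.17, adjusted p = 0.714). fam219b had 43, 26 and 39 counts in runx2b-/- libraries and 53, 24 and 17 in wild type libraries (0.34, SE 0.35, adjusted p = 0.644). The groups of all 3 overlapped. The remaining genes wtip, sdr42e1, si:dkey-205h23.1, CELF6 and parp6a had at most 11 counts in any library. The pyruvate kinase gene pkma begins just past the end of this model, at 1014890, and was not called. Of the tested genes within its model, and of pkma downstream, none but gpib was called. Apart from gpib these genes all lie downstream of the compact block, and genes upstream of it were not examined here. Markers of other tissues and cells differed too: all 4 tested egg yolk markers fell, from a list that summed to 0.109 to 0.604 CPM in runx2b-/- libraries and 30.8 to 31.8 CPM in wild type libraries. The models of vtg4 and vtg7 overlap those of vtg1 and vtg5 on the same strand of chromosome 22. These 4 may thus not be separate observations, and whether they share exonic bases was not tested. Of 5 tested bone markers 1, bglapl, fell, and their list summed to 2.75 to 9.82 CPM in runx2b-/- libraries and 34.4 to 50.8 CPM in wild type libraries. bglapl averaged 2.12 CPM in runx2b-/- and 17.9 CPM in wild type. col10a1a, at 1.51 CPM in runx2b-/- and 18.4 CPM in wild type, was not called (edgeR adjusted p = 0.0667). The groups of bglap, spp1 and entpd5a overlapped. The neutrophil, macrophage, epidermis and adipocyte lists, with 2, 5, 3 and 4 markers tested, each had 1 marker that fell. Over all tested genes 1.62% were called lower. The epidermis list summed to 72.5 to 94.3 CPM in runx2b-/- libraries and 52.4 to 174 CPM in wild type libraries. The adipocyte list summed to 323 to 438 CPM in runx2b-/- libraries and 382 to 444 CPM in wild type libraries. Sums of the epidermis, adipocyte and macrophage lists overlapped between the groups, and those of the neutrophil list did not. The neutrophil gene lyz had at most 0.055 CPM in runx2b-/- libraries and 0.856 to 2.21 CPM in wild type libraries, and the epidermal gene epcam 0.891 ± 0.283 CPM in runx2b-/- libraries and 5.75 ± 0.706 CPM in wild type libraries (SD, n = 3 each). The macrophage gene c1qb stood at -0.88 (SE 0.21, edgeR adjusted p = 0.0398) and the adipocyte gene adipoqa at -0.80 (SE 0.19, adjusted p = 0.0441). The other tested epidermis markers, krt4 (0.19, SE 0.18) and krt5 (-0.94, SE 0.965), were not called. Neither were the other adipocyte markers tested, fabp11a (0.004, SE 0.165), adipoqb (-0.09, SE 0.38) and lpl (-0.125, SE 0.23). The part of these markers in the fall of gpib was not tested.

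Hexokinase, the enzyme that traps glucose in the cell, had low transcript levels, and neither of its genes passed the test. hk1 averaged 60.5 ± 9.74 CPM in runx2b-/- and 70.4 ± 13.1 CPM in wild type (-0.22 in log2, SE 0.19, edgeR adjusted p = 0.563). hk2 averaged 10.3 ± 0.449 CPM in runx2b-/- and 11.6 ± 2.29 CPM in wild type (-0.17, SE 0.18, adjusted p = 0.651). The groups of both genes overlapped. Intervals of 1.96 SE to either side, -0.58 to 0.14 for hk1 and -0.52 to 0.18 for hk2, still allow modest differences.

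Phosphofructokinase commits sugar to glycolysis, and its muscle-type genes pfkma and pfkmb held most of the step. pfkmb had 642, 436 and 692 CPM in runx2b-/- libraries and 382, 424 and 430 CPM in wild type libraries. The groups did not overlap, but runx2b-/- library 2 lay close to wild type, and the log2 fold change of 0.52 (SE 0.19) had an edgeR adjusted p of 0.148. pfkma stood at 0.05 (SE 0.21), with 1 wild type library, library 1, at 159 CPM and the other 5 libraries at 235 to 304 CPM. The liver-type gene pfkla and the platelet-type gene pfkpa averaged under 10 CPM in each group, at -0.03 (SE 0.28) and -0.21 (SE 0.20).

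Aldolase splits fructose bisphosphate, and aldoaa, for its muscle form, was the most abundant aldolase gene per length. aldoaa had 2484, 1802 and 2778 CPM in runx2b-/- libraries and 1532, 1577 and 1862 CPM in wild type libraries. Here runx2b-/- libraries 1 and 3 lay above each wild type library and library 2 among them (log2 fold change 0.51, SE 0.19, edgeR adjusted p = 0.158). aldoab stood at 0.35 (SE 0.17) and the brain-type aldocb, under 10 CPM in each library, at -0.11 (SE 0.20). Triosephosphate isomerase, which interconverts the triose phosphates from aldolase, came almost entirely from tpi1b, at 950 ± 171 CPM in runx2b-/- and 937 ± 75.0 CPM in wild type. Its log2 fold change of 0.02 (SE 0.17) was -0.004 with scaling by library size only. tpi1a stood at -0.34 (SE 0.37) with 11 to 40 counts per library. tpi1b shares 24 exonic bases with lpcat3 on the other strand.

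The next steps, glyceraldehyde-3-phosphate dehydrogenase and phosphoglycerate kinase, yield NADH and ATP. gapdh, for the dehydrogenase, had the highest length-scaled level of the members, 4988 ± 1279 in runx2b-/- and 3613 ± 744 in wild type. It had 5536, 3633 and 5147 CPM in runx2b-/- libraries and 2899, 4320 and 3973 CPM in wild type libraries. The groups overlapped, with a log2 fold change of 0.36 (SE 0.21, edgeR adjusted p = 0.377). Its lesser relative gapdhs, at 6.59 to 7.80 CPM in runx2b-/- libraries and 7.73 to 10.5 CPM in wild type libraries, stood on the other side of 0 at -0.35 (SE 0.18, adjusted p = 0.309). pgk1, for the phosphoglycerate kinase that makes ATP, had 1065, 872 and 1201 CPM in runx2b-/- libraries and 781, 652 and 867 CPM in wild type libraries. These groups did not overlap but runx2b-/- library 2 and wild type library 3 were almost level (0.45, SE 0.18, adjusted p = 0.183).

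Phosphoglycerate mutase and enolase lead on to phosphoenolpyruvate. pgam2, the muscle mutase gene, had 693, 530 and 780 CPM in runx2b-/- libraries and 641, 785 and 875 CPM in wild type libraries (-0.20, SE 0.19, edgeR adjusted p = 0.605). pgam1a stood at 0.01 (SE 0.24). pgam2 shares 193 exonic bases with rpl17, which lies on the other strand, so their reads may be mixed if strand was not used in counting. eno3, for muscle enolase, had 4255, 4099 and 5565 CPM in runx2b-/- libraries and 3079, 4226 and 4020 CPM in wild type libraries (0.30, SE 0.19, adjusted p = 0.418). The groups of both genes overlapped. eno1a stood at -0.08 (SE 0.18). eno1b was the member too low to be tested, with 6, 4 and 6 counts in runx2b-/- libraries and 14, 10 and 12 counts in wild type libraries.

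Pyruvate kinase and lactate dehydrogenase close the route. pkmb, the main pyruvate kinase gene, averaged 871 ± 186 CPM in runx2b-/- and 686 ± 119 CPM in wild type (0.34 in log2, SE 0.19, edgeR adjusted p = 0.361). pkma had 37.2, 31.8 and 40.7 CPM in runx2b-/- libraries and 27.4, 28.8 and 29.9 CPM in wild type libraries (0.35, SE 0.16, adjusted p = 0.241), with groups that did not overlap. pkma made up 2.21% to 2.62% of this pair in runx2b-/- libraries and 2.12% to 2.74% in wild type libraries. ldha, which favours lactate production in muscle, had 959, 797 and 1208 CPM in runx2b-/- libraries and 1051, 807 and 956 CPM in wild type libraries (0.07, SE 0.19, adjusted p = 0.871). ldhba, the heart-type gene, stood at -0.03 (SE 0.15). Both overlapped between the groups.

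The 3 highest fold changes of the list were those of glycogen enzyme genes, gys1, pygma and pygmb, all short of the threshold. gys1 (chromosome 3, 16572214 to 16596696), for the muscle glycogen synthase that lengthens glycogen chains, had 354, 195 and 319 CPM in runx2b-/- libraries and 155, 163 and 192 CPM in wild type libraries. runx2b-/- library 2 nearly touched the highest wild type library. The log2 fold change was 0.77 (SE 0.21, edgeR adjusted p = 0.0717). It was called without runx2b-/- library 2 (1.00, adjusted p = 0.0331), where 1.04% of all tested genes were called. It was also called without wild type library 3 (0.87, adjusted p = 0.0453), where 8.25% were called, and further without a filter (0.76, adjusted p = 0.00380) and with DESeq2 (adjusted p = 0.0262). Over the 15 alternatives with single genes its adjusted p ran from 0.00380 to 0.280.

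Glycogen phosphorylase releases glucose 1-phosphate from glycogen. pygma, its main gene here, had 764, 556 and 823 CPM in runx2b-/- libraries and 487, 413 and 529 CPM in wild type libraries, so that the groups did not overlap (0.58 in log2, SE 0.18, edgeR adjusted p = 0.102). Of the 15 alternatives it was called in 1, without a count filter, at adjusted p = 0.0329. pygmb had 31.5, 28.8 and 33.0 CPM in runx2b-/- libraries and 31.2, 19.9 and 11.5 CPM in wild type libraries (0.57, SE 0.31, adjusted p = 0.362), and was called without wild type library 1 (0.98, adjusted p = 0.0227). Phosphoglucomutase, which links glucose 1-phosphate to glycolysis, and glycogenin, the protein primer of glycogen, overlapped between the groups. pgm1 stood at 0.21 (SE 0.20), gyg1b at 0.20 (SE 0.26) and gyg1a at -0.28 (SE 0.17). gyg1a shares 204 exonic bases with hltf on the other strand.

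**Figure D3:**
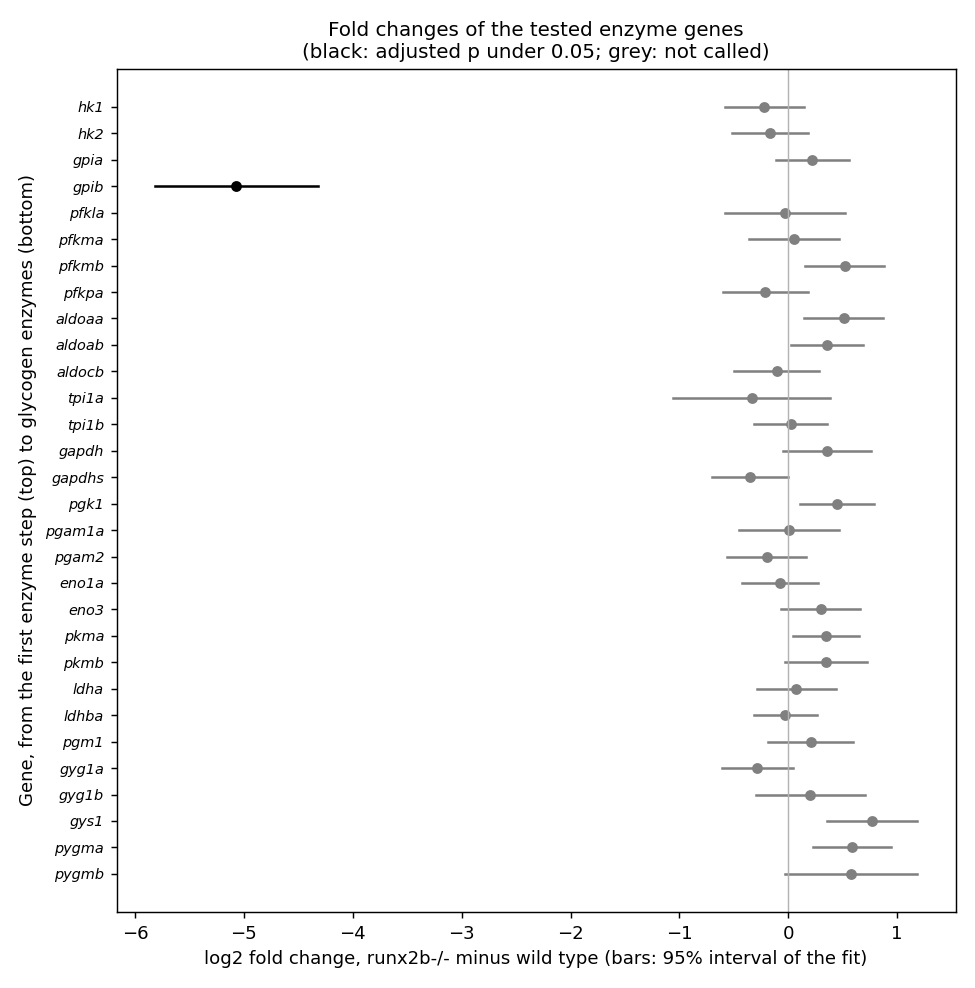
Log2 fold change, runx2b-/- minus wild type, of the 30 tested enzyme genes in order of enzyme step, with bars of the fit's 95% interval that are not adjusted for the number of genes. gpib stands alone at -5.07, and the next largest change in size is 0.77, in gys1.

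Beside gpib, the other 29 tested members stayed within 0.77 of 0 on the log2 scale, and 24 of them within 0.5. Of the 17 members that averaged at least 100 CPM over all libraries, 13 were above 0, with a median log2 fold change of 0.30. The other 4 were gpib, pgam2, eno1a and ldhba. Over all 586 tested genes of that abundance 55.6% were above 0, with a median of 0.04. Of the 13 members under 100 CPM, 5 were above 0 (median -0.11), beside 48.9% of all tested genes under 100 CPM. The limit of 100 CPM was chosen after the values were seen, and no test was made. With scaling by library size only 12 of the 17 were above 0, and leaving out a library gave 11 to 14.

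The groups did not overlap in 6 of the 30 tested members, 5 higher and 1 lower in runx2b-/-, beside 24.6% of all tested genes (12.8% higher and 11.7% lower), so this share too is near that of the whole table. The 5 higher ones were pfkmb, pgk1, pkma, gys1 and pygma. runx2b-/- library 2 held the lowest value of its group in 23 of 30 tested members, whereas it was lowest in 33.5% of all tested genes. Wild type library 1 was lowest of its group in 19 of 30 members, against 36.6% of all tested genes. Summed over the members this gave 20151, 15817 and 22480 CPM in runx2b-/- libraries and 14032, 16682 and 17444 CPM in wild type libraries, which overlap. The median log2 fold change of the members was 0.17 without runx2b-/- library 2 and 0.06 without wild type library 1. In runx2b-/- the fast muscle markers did not follow the order of the member sums: library 1 had the lowest marker sum. In wild type libraries 1, 2 and 3 the markers summed to 258994, 291466 and 382765 CPM, the same order as the member sums. Of the fast muscle markers 10 of 10 were tested and 0 were called. The slow muscle markers summed to 7462 to 7738 CPM in runx2b-/- libraries and 6381 to 8720 CPM in wild type libraries. Over all tested genes 1.76% were called higher. Markers of red blood cells summed to 1376 to 1591 CPM in runx2b-/- libraries and 1070 to 1246 CPM in wild type libraries, with 3 of 6 called higher (edgeR adjusted p under 0.05 each). These were hbaa2, alas2 and slc4a1a. hbba1, with the most reads of that list, was not called (0.39, SE 0.15, edgeR adjusted p = 0.178), nor were hbba2 (0.64) and hbaa1 (0.007). Markers of endothelium summed to 74.8 to 89.98 CPM in runx2b-/- libraries and 53.3 to 61.9 CPM in wild type libraries, with 1 of 3, cdh5, called higher (0.71, SE 0.16, edgeR adjusted p = 0.0337) and the groups of all 3 apart. Their part in the values of the enzyme genes was not tested.

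The order of the steps by transcript level changed most at glucose-6-phosphate isomerase. In length-scaled units summed over the members of a step, glyceraldehyde-3-phosphate dehydrogenase was highest and enolase next in each of the 6 libraries, followed by aldolase and phosphoglycerate mutase. Glucose-6-phosphate isomerase had 36.2, 18.6 and 24.3 per 1000000 in runx2b-/- libraries and 265, 320 and 271 in wild type libraries. It was the lowest of the 15 steps in each runx2b-/- library, and ranked 10 or 11 of 15 in each wild type library. Other steps shifted too. Glycogen synthase ranked 11 in each runx2b-/- library and 13, 14 and 14 in wild type libraries. By group mean triosephosphate isomerase ranked 8 in runx2b-/- and 6 in wild type. Hexokinase, the lowest step of wild type, had 38.0, 27.5 and 35.5 in runx2b-/- libraries and 44.2, 37.0 and 28.3 in wild type libraries. aldoca is missing from the aldolase sum, and transcript levels of different enzymes say nothing of their activities.

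Among the 15 steps the groups did not overlap in 5 that were higher and 1 that was lower in runx2b-/- in length-scaled units, in which 23.9% of all tested genes did not overlap. The higher ones were phosphofructokinase, aldolase, phosphoglycerate kinase, glycogen synthase and glycogen phosphorylase. Aldolase had 3669, 2508 and 3673 per 1000000 in runx2b-/- libraries and 2088, 2180 and 2333 in wild type libraries. Glycogen phosphorylase had 635, 417 and 597 in runx2b-/- libraries and 359, 308 and 354 in wild type libraries. Each of the 6 steps had an exact permutation p of 0.1, the smallest possible with 3 against 3 libraries, and 0.25 adjusted over 15 steps. Length-scaled levels lack the TMM scaling. With summed TMM-scaled CPM, phosphofructokinase and aldolase overlapped, which left 3 steps higher and 1 lower: phosphofructokinase had 690 CPM in runx2b-/- library 2 and 743 CPM in wild type library 3, and aldolase 2262 CPM in runx2b-/- library 2 and 2329 CPM in wild type library 3. In the TMM-scaled fit of summed counts aldolase stood at 0.48 (SE 0.18, edgeR adjusted p = 0.174) and glycogen phosphorylase at 0.58 (SE 0.18, adjusted p = 0.0974).

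**Figure D4:**
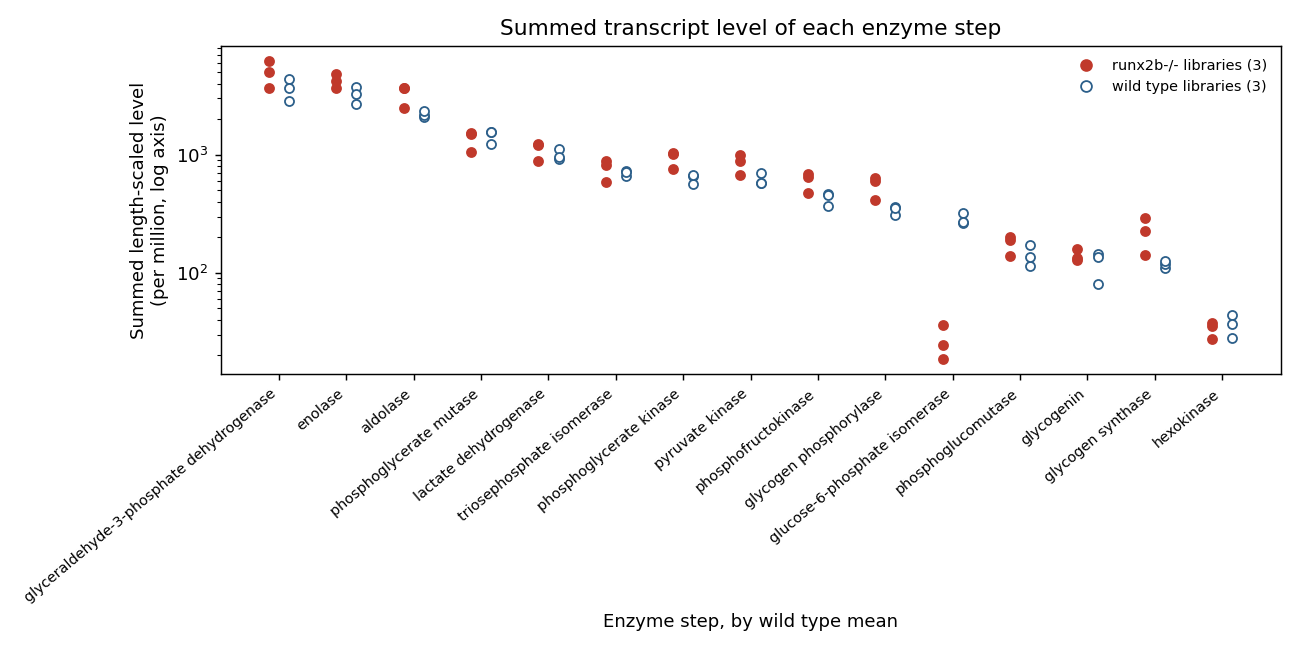
Summed length-scaled level of each of the 15 enzyme steps in each library (per 1000000, log axis), ordered by the wild type mean; filled points are runx2b-/- libraries and open points wild type libraries. Glucose-6-phosphate isomerase drops to 18.6 to 36.2 in runx2b-/- libraries, below hexokinase, while glycogen synthase has the largest difference among the other steps, at 0.83 on the log2 scale.

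Single-gene CPM did not overlap between the groups in 24.6% of all tested genes, and such a share was not computed for ratios. Of the 12 gene pairs, the ratio did not overlap between the groups in 4. Beside gpia and gpib these were eno1a to eno1b (a log2 difference of 0.90, resting on 4 to 14 counts of eno1b), gapdh to gapdhs (0.70) and gyg1a to gyg1b (-0.54). Each had an exact permutation p of 0.1 and 0.3 adjusted over the 12 pairs. In the gapdh pair the lesser gene gapdhs made up 0.16% to 0.22% of the level in runx2b-/- libraries and 0.28% to 0.32% in wild type libraries. gyg1a made up 13.6% to 14.6% of the glycogenin level in runx2b-/- libraries and 15.1% to 25.4% in wild type libraries. The other pairs overlapped, with aldoaa to aldoab at 0.15, pfkma to pfkmb at -0.39, pkma to pkmb at 0.01, pygma to pygmb at -0.12, tpi1a to tpi1b at -0.48, hk1 to hk2 at -0.07, ldha to ldhba at 0.09 and pgam1a to pgam2 at 0.28.

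Around these enzymes, 130 further genes of the pathway were listed by role. Of the 115 found in the table, 92 were tested, and 3 rose and 0 fell in runx2b-/-, beside 1.76% of all tested genes called higher and 1.62% called lower. Their median log2 fold change was 0.05. The largest change was in got1, for the cytosolic aspartate aminotransferase of the malate-aspartate shuttle, which carries NADH electrons from glycolysis into mitochondria. got1 (chromosome 13, 40311660 to 40331103) had 355, 324 and 295 CPM in runx2b-/- libraries and 118, 88.4 and 98.9 CPM in wild type libraries. The groups lay far apart, at a log2 fold change of 1.68 (SE 0.17, edgeR adjusted p = 0.000164), or 3.20-fold higher in runx2b-/-. It was called under each of the 16 alternatives, with an adjusted p of at most 0.00290. The other genes of the malate-aspartate shuttle on the list, mdh1ab (0.01), got2a (0.01), got2b (0.13), mdh2 (-0.03) and mdh1aa (-0.25), were not called.

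gpd1a, for the cytosolic dehydrogenase of the glycerol phosphate shuttle, rose less, to 20.2, 19.9 and 19.1 CPM in runx2b-/- libraries, against 13.6, 12.9 and 12.7 CPM in wild type libraries (0.59 in log2, SE 0.15, edgeR adjusted p = 0.0476). Its values were tight within each group, but the call ended without any 1 runx2b-/- library or without wild type library 2 (adjusted p of 0.130 to 0.180), with library size only (0.224), upper-quartile scaling (0.0509), limma voom (0.0504) and the replicate block (0.0861). Its paralog gpd1b had more reads, averaging 149 CPM in runx2b-/- and 160 CPM in wild type. gpd1b was not called (-0.105 in log2, SE 0.19, edgeR adjusted p = 0.819). Nor were gpd1c (-0.395) and gpd2 (0.266) called, and gpd1l was too low to be tested. ugp2a, for the enzyme that makes the UDP-glucose used by glycogen synthase, rose to 48.2, 37.6 and 55.5 CPM in runx2b-/- libraries, against 17.9, 27.1 and 28.6 CPM in wild type libraries. It stood at 0.94 (SE 0.21, edgeR adjusted p = 0.0297), and its call ended without any 1 runx2b-/- library or without wild type library 2 (adjusted p of 0.0541 to 0.161).

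Beside got1, gpd1a and ugp2a no gene of the 92 was called by edgeR, and 25 of the 92 had an unadjusted p under 0.05, beside 19.4% of all tested genes; the counts by role that follow stand against the same share. These included 8 of 22 genes of glycogen branching, breakdown and their control. Of the 22, those with the most reads, the glycogen-targeting phosphatase subunit gene ppp1r3aa (0.56, SE 0.19, edgeR adjusted p = 0.126) and the debranching enzyme gene aglb (0.63, SE 0.24, adjusted p = 0.174), were not called. Of the 8, epm2a (-0.91), phkg1b (-0.62) and phkg2 (-0.65) were below 0. The rest, ppp1r3aa, aglb, ugp2a, stbd1 (0.67) and ppp1r3cb (0.39), were above 0. Of 16 genes of pyruvate entry into mitochondria 4 had an unadjusted p under 0.05; the pyruvate dehydrogenase complex genes pdhb (0.23, SE 0.17) and dldh (0.16, SE 0.15) had the most reads. Of 12 genes of fructose bisphosphate control and gluconeogenesis 2 had an unadjusted p under 0.05, both below 0. These were tigara (-0.82, SE 0.22, edgeR adjusted p = 0.0625) and fbp2 (-0.37, SE 0.16, adjusted p = 0.237). pfkfb4a and pfkfb3, which had the most reads of the 12, were not among them. pfkfb4a stood at 0.56 (SE 0.27) and pfkfb3, for another enzyme that makes the phosphofructokinase activator fructose 2,6-bisphosphate, at -1.01 (SE 0.91). pfkfb3 had 28.7, 27.6 and 53.6 CPM in runx2b-/- libraries and 25.7, 31.4 and 164 CPM in wild type libraries, and its log2 fold change turned to 0.37 (edgeR adjusted p = 0.477) without wild type library 3.

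Of 10 other isoforms of the listed enzymes 4 had an unadjusted p under 0.05, and the mutase genes bpgm (0.36, SE 0.16) and pgam1b (0.04, SE 0.23) had the most reads. Of 8 pentose phosphate genes 7 were below 0, with a median of -0.46, and 1 had an unadjusted p under 0.05. The transaldolase gene taldo1 (-0.47, SE 0.20) and the transketolase gene tktb (-0.45, SE 0.24) had the most reads among them. Of 5 tested transport genes 1 had an unadjusted p under 0.05, with bsg, a chaperone of lactate transporters, at 0.36 (SE 0.15) and slc16a1a, for a lactate transporter, at 0.22 (SE 0.20). Of 9 regulators 3 had an unadjusted p under 0.05. hif1al, of the hypoxia-inducible factor alpha family, had 142, 83.9 and 137 CPM in runx2b-/- libraries and 54.4, 58.7 and 84.3 CPM in wild type libraries (0.88, SE 0.23, edgeR adjusted p = 0.0656). It was called in 6 of 16 alternatives. One of them left out wild type library 3 (edgeR adjusted p = 0.0132), where 8.25% of all tested genes were called. Another left out runx2b-/- library 2 (edgeR adjusted p = 0.0492), where 1.04% were called. hif1ab stood at -0.24 (SE 0.17).

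**Figure D5:**
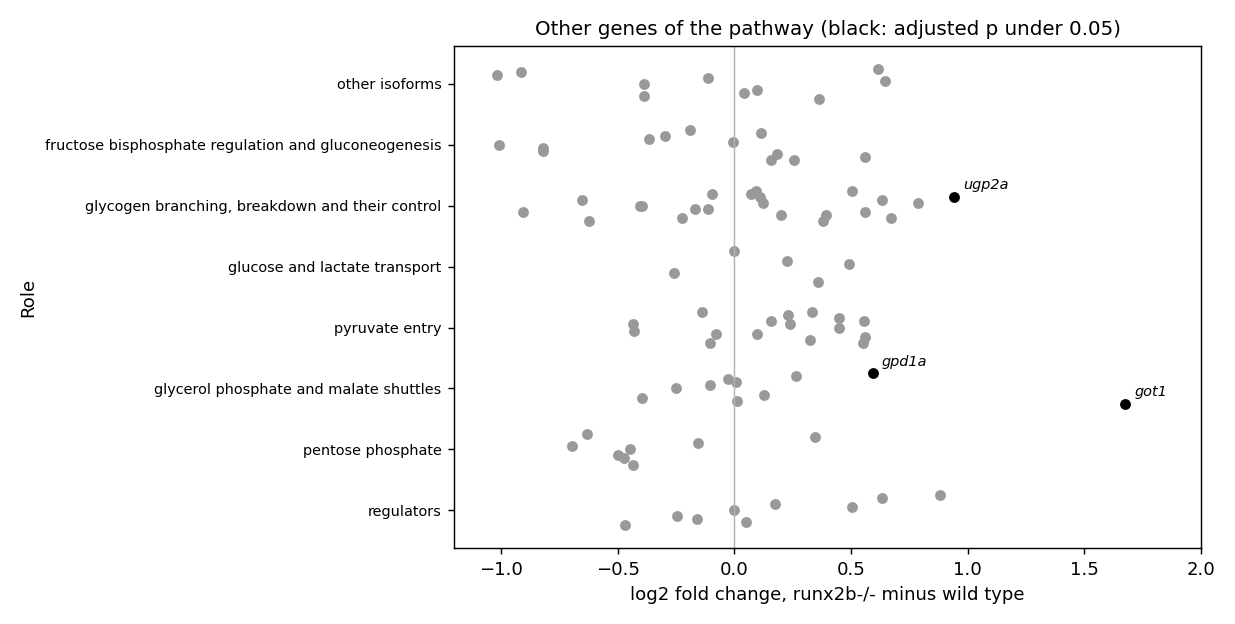
Log2 fold change, runx2b-/- minus wild type, of the 92 tested further genes of the pathway, 1 point per gene, in rows by role (black: edgeR adjusted p under 0.05). got1 at 1.68, ugp2a at 0.94 and gpd1a at 0.59 are the called genes, and no gene below 0 was called.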

How the data were processed

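The authors deposited whole-number read counts per gene symbol for the 6 bulk libraries, neither normalized nor pooled; per the file headers, each gene has its exon positions, strand and length. Per the labels' protocols, the libraries were made with a stranded mRNA kit. Aligner, counting program and strand setting are not given in the sources used here. Cell Ranger and GRCz11 appear in the submitters' processing notes, not tied to this table. Reads of near-identical paralogs or overlapping genes may be split or merged.

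The tools were edgeR 4.0.16 in R 4.3.3 (filterByExpr with min.count 10 and min.total.count 15, TMM, robust quasi-likelihood fit without covariates, Benjamini-Hochberg over 14107 genes), DESeq2 1.42.0 and limma 3.58.1. SE is the absolute log2 fold change over the square root of F. CPM uses TMM-scaled library sizes (factors 0.882 to 1.13). Length-scaled levels divide counts by the table's gene length. Pair ratios used a pseudocount of 0.5 counts. Intervals are 1.96 SE to either side and cover the fit's error only. They take a normal distribution, whereas the F test allows for few libraries, so they are narrower than that test implies. The interval of gapdhs, -0.701 to -0.001, left out 0 although its unadjusted edgeR p was 0.0722.

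Members and lists were chosen with earlier results of these data known. The named genes were the isomerase genes, the 6 members of highest length-scaled level, any member called under some setting or below 1 CPM in each group, genes overlapping a called member's model, and, of the further pathway genes, those called and the 2 of each role with the highest CPM; the rest are given for completeness. On simulated data for this comparison (13755 genes, 50 planted per fold size) the edgeR test found 4% of the 1.5-fold changes and 46% of the 2-fold ones. It found 98% at 4-fold and 100% at 8-fold, with 20 false calls. These were a larger share of the simulated calls than an adjusted p limit of 0.05 aims at, so calls near that limit are less sure. No library was a copy of another (chi-square per degree of freedom 23.2 to 84.8 within groups). The alternatives were other scalings, filters and tools, a replicate block, a gene length correction, summed steps and leaving out each library.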

Additional observations from a re-analysis of the deposited data

How the results depend on the processing

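The fall of gpib and the rise of got1 were called under every alternative in which each was tested as a single gene. Over all genes 476 were called, against 1161 without a filter and 304 with at least 50 counts in 3 libraries; leaving out a library gave 115 to 155 for any runx2b-/- library or wild type library 2, and 1225 for wild type library 3. The members called higher, 0 by the edgeR test as reported, were 2 without a filter (gys1 and pygma), 1 with DESeq2 and 0 to 1 with a library left out. The further pathway genes called higher were 3, and 5 without a filter and 1 to 6 with a library left out; those called lower were 0, and 3 without a filter, 1 with the stricter filter, 1 with DESeq2 and 0 to 1 with a library left out. Glucose-6-phosphate isomerase moved to 0.311 without gpib. Signs of small log2 fold changes turned for tpi1b (-0.004) and pgam1b (-0.017) with library size only, and for ldhba (0.042) and mdh2 (0.052) with the length correction. pgam1a turned with upper-quartile scaling (-0.002), library size only (-0.054), no filter (-0.002) and the stricter filter (-0.011). With a library left out the ranges that crossed 0 were -0.349 to 0.231 for pfkla, -0.182 to 0.264 for pfkma, -0.202 to 0.052 for aldocb, -0.075 to 0.167 for tpi1b, -0.238 to 0.167 for pgam1a, -0.232 to 0.056 for eno1a, -0.090 to 0.215 for ldha, -0.101 to 0.046 for ldhba, -0.067 to 0.388 for gyg1b, -0.074 to 0.023 for mdh2, -1.427 to 0.365 for pfkfb3 and -0.146 to 0.332 for pgam1b. The cause was not tested. In the fit with a replicate block gpib stood at -5.17 (edgeR adjusted p = 0.0120) and 377 genes were called, but libraries with the same number did not deviate together (correlations of -0.0553 to 0.0348 over genes), and not every library correlated best with its own number. At this depth 3 counts were 0.134 to 0.181 CPM. The simulation recovered 4% of 1.5-fold changes planted in genes drawn at random from the tested ones above 1 CPM. Changes of that size were thus mostly not detectable over such genes. Recovery among abundant genes alone was not measured.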
